A study of Mus musculus with 4 samples.

Results

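The autophagy machinery described here is a set of 42 genes, chosen by symbol from the 23282 gene rows of the count files. It holds the 24 symbols that begin with Atg, Ulk or Wipi and a digit, and 18 further genes of the same pathway taken by name, from Becn1 and Rb1cc1 to Sqstm1 and Epg5. The choice went by symbol and not by a measured value, but it was made with earlier results of these data known. All 42 had enough counts to be tested. The samples were mammary gland tumours of female FVB mice, 14 weeks old, that carry PyMT, the polyoma virus middle T oncogene, in both groups. There were 2 libraries labelled Nr1d1+/+ and 2 labelled Nr1d1-/-. The product of Nr1d1, REV-ERBα, is a transcriptional repressor and part of the circadian clock. The labels do not give the promoter that drives PyMT, the exons that the null allele lacks or whether tumours were pooled. They also do not say that the 2 replicates of a genotype were different mice, so the p-values reflect no more than the scatter among these 4 libraries, which could be technical.

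Autophagy delivers cytoplasmic cargo to the lysosome inside a double membrane, the autophagosome. The ULK1 kinase complex starts its formation, a class III phosphatidylinositol 3-kinase marks the site with the lipid PI3P, and ATG9 vesicles and ATG2 proteins supply lipid. ATG7, ATG3, ATG10 and the ATG12-ATG5-ATG16L1 complex then attach proteins of the ATG8 family (the LC3 and GABARAP proteins) to the membrane, where cargo receptors such as SQSTM1 bind them. In mammary tumours autophagy is best known as a process that both limits tumour initiation and feeds established tumour cells. Transcript levels do not measure the flux of the process.

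Total counts ran from 15905404 to 19116279 per library, and 1 count was worth 0.0473 to 0.0733 CPM (counts scaled to a common library size with TMM factors), the scale of every level below. Transcripts of Nr1d1 stood at 20.2 and 10.3 CPM in the Nr1d1+/+ libraries and at 10.6 and 12.8 CPM in the libraries labelled Nr1d1-/-, so the counts do not separate the genotypes, and directions rest on the labels alone. Luminal markers were abundant in all 4 libraries, with the summed level of 10 markers (Krt8, Krt18, Csn3 and others) between 22956 and 28689 CPM, and of these Krt8, Krt18 and Krt19 were called higher and Cdh1 lower in the libraries labelled Nr1d1-/-. Nr1d1-/- replicate 1 stood apart by skeletal muscle transcripts, 693 CPM over 8 markers against 21.4 to 27.7 CPM in the other libraries. Red blood cell markers summed to 453 and 581 CPM in Nr1d1+/+ and to 2016 and 2194 CPM in Nr1d1-/- libraries (5 of 5 tested were called higher). Macrophage markers summed to 113 and 150.0 against 257 and 359 CPM. Of these 7 markers 3, C1qa, C1qb and C1qc, were called higher, and Adgre1, Csf1r, Cd68 and Mrc1 were not called. Of 7 fibroblast markers 1, Col1a1, was called higher, and of 5 T cell markers 1, Cd3d. Adipocyte markers summed to 54.8 and 59.9 against 232 and 165 CPM (4 of 6 tested were called higher). Of 7 endothelial markers 4 were also called higher, and Cdh5, Kdr and Tek were not called. Of 6 basal markers 4 were called higher and 1, Trp63, lower. Myh4, Myh1, Tnnt3, Mylpf and Tcap of the muscle list and Adipoq, Plin1 and Lep of the adipocyte list were at or under 3 counts in at least 1 library. The part of these cells in the results below was not tested, and in bulk tissue fewer cells of a type and less RNA per cell cannot be told apart.

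The autophagy genes moved in both directions. By edgeR's quasi-likelihood test at a Benjamini-Hochberg adjusted p under 0.05 over all 14801 tested genes, 9 of the 42 fell in the libraries labelled Nr1d1-/-, 5 rose and 28 did not pass. The shares were 21.4% lower and 11.9% higher, beside 17.3% and 16.5% of all tested genes, so neither share stood far from the background. In either direction 33.9% of all tested genes were called. The initiation kinases and their scaffold (Ulk1, Ulk2, Rb1cc1), the lipid transfer and PI3P-binding genes Atg2b and Wipi1, the kinase-complex subunit Atg14 and the cargo receptors Nbr1, Calcoco1 and Tax1bp1 were the genes that fell. Ulk3, the proteases Atg4c and Atg4b, the LC3 gene Map1lc3a and the initiation subunit Atg101 were the genes that rose. The median log2 fold of the members, Nr1d1-/- over Nr1d1+/+, was -0.35, and that of all tested genes was -0.01. In 24 members (57.1%) both Nr1d1-/- libraries lay below both Nr1d1+/+ libraries and in 11 (26.2%) both lay above, while the same held for 36.2% and 34.4% of all tested genes, and 70.5% of them did not overlap in either direction.

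**Figure D1:**
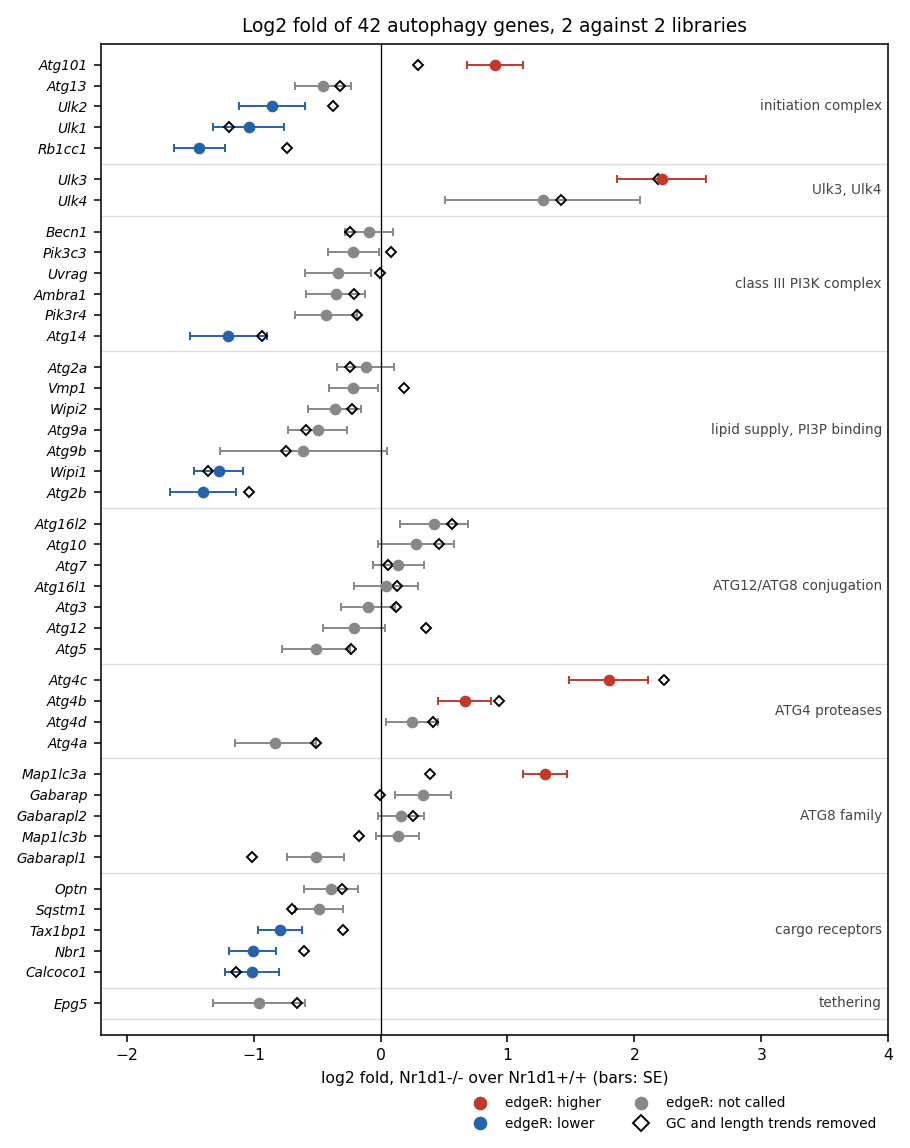
Log2 fold (horizontal axis, Nr1d1-/- over Nr1d1+/+, n = 2 libraries each) of the 42 members grouped by role, with bars for the standard error, red for genes called higher, blue for genes called lower and grey for those not called by edgeR. Open diamonds give the log2 fold with GC and transcript length trends removed. Ulk3 and Atg4c stand farthest to the right at 2.21 and 1.80. All 5 cargo receptors lie to the left of 0, as do 50.2% of all tested genes.

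Long transcripts were lower and short ones higher across the tumour transcriptome of the libraries labelled Nr1d1-/-, and the autophagy genes tend to be long. Their median transcript length was 3193.5 bases, against 2621.5 over all tested genes. Across the 42 members the Spearman correlation of the log2 fold with length was -0.345 and with GC content 0.165, given as a description. For all tested genes it was -0.319 and 0.319. Members under 2000 bases had a median log2 fold of 0.22 (8 genes), those from 2000 to under 4000 bases -0.42 (18 genes) and those of 4000 or more -0.39 (16 genes). All tested genes of the same classes had medians of 0.37, -0.14 and -0.47. The median of the members lay below that of all genes in the 2 shorter classes and above it in the longest, as a description with no test. After the trends with GC and length were taken out of every library, 7 members were called lower and 3 higher, which is beside 10.4% and 10.9% of 14655 genes, and 5 of the 9 lower and 3 of the 5 higher genes were called in both fits. Those 8 genes were Rb1cc1, Atg2b, Wipi1, Ulk1, Calcoco1, Ulk3, Atg4c and Atg4b. Over all tested genes the share called in either direction was 33.9% in the reported fit and 21.4% with the trends removed. The share of all genes called in both fits was not computed, so the 8 genes are given as a description. Whether length or GC content had a part in the folds of the members was not tested. The value with the trends removed is given below for each gene whose call it ended.

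**Figure D2:**
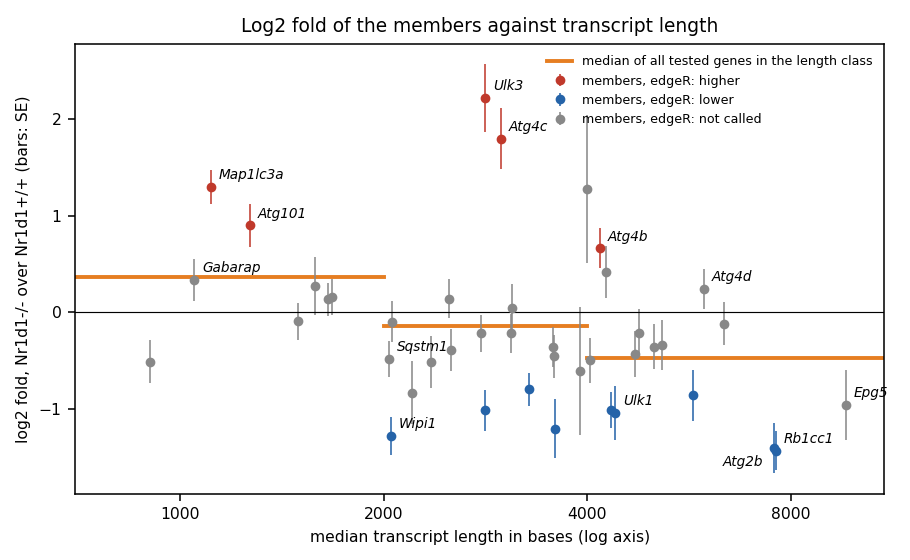
Log2 fold (vertical axis, bars for the standard error) of the 42 members against the median length of their coding transcripts in bases (horizontal log axis), coloured by the edgeR call. Orange lines are the medians of all tested genes in 3 length classes (0.37, -0.14 and -0.47), and Ulk3 and Atg4c lie far above the line of their class while Wipi1 lies below it.

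The initiation complex consists of the kinases ULK1 or ULK2, the scaffold FIP200 (the product of Rb1cc1) and the adaptors ATG13 and ATG101. Of its 5 genes 3 fell, 1 rose and 1 did not pass, beside 17.3% called lower and 16.5% higher of all tested genes. Rb1cc1, on chromosome 1 from 6206197 to 6276648 (GRCm38, plus strand), read 63.2 and 66.1 CPM in the Nr1d1+/+ libraries and 26.4 and 21.7 CPM in the libraries labelled Nr1d1-/-. The Nr1d1-/- libraries lay far below, and the fall was 2.69-fold (log2 fold -1.43, standard error SE 0.20, edgeR adjusted p = 0.0027). At 7607 bases its transcript is among the longest of the set. With the trends removed the log2 fold was -0.74 (edgeR adjusted p = 0.0298), so the call held at a smaller size. Of the 50-base words in its transcripts 8.2% also occur in other genes, chiefly the pseudogene Gm13961, and its exons share 558 bases with the antisense gene 4732440D04Rik.

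Ulk1 was 33 and 40.7 CPM against 13.5 and 22.2 CPM, without overlap, which gave 2.06-fold less (log2 fold -1.04, SE 0.28, adjusted p = 0.0212 by edgeR). The log2 fold of Ulk1 was -0.73 without Nr1d1-/- replicate 1 (edgeR adjusted p = 0.0714) and -0.90 without Nr1d1+/+ replicate 2 (0.111), neither of which passed. Ulk2, whose product can stand in for ULK1, was 50.8 and 35.6 CPM against 28.1 and 19.8 CPM with the groups apart (log2 fold -0.86, SE 0.26, adjusted p = 0.0352 by edgeR). The call of Ulk2 was lost with the trends removed (log2 fold -0.38, edgeR adjusted p = 0.342), without a filter on low counts (adjusted p = 0.0554), without Nr1d1+/+ replicate 1 (-0.62, 0.189) and without Nr1d1-/- replicate 2 (-0.64, 0.118). Atg101 moved the other way, from 28 and 21.5 CPM to 48.6 and 43.7 CPM (log2 fold 0.90, SE 0.22, adjusted p = 0.0151 by edgeR). Its transcript is short, 1270 bases, and its log2 fold was 0.29 with the trends removed (edgeR adjusted p = 0.335) and 0.70 without Nr1d1+/+ replicate 2 (0.128). Atg13 did not pass at 27.2 and 27.4 CPM against 18.5 and 21.3 CPM (log2 fold -0.45, edgeR adjusted p = 0.145).

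Ulk3 showed the largest log2 fold of the 42 genes. ULK3 belongs to the same kinase family but is best known for its action on GLI proteins of Hedgehog signalling, and it is not a subunit of the initiation complex. Ulk3, on chromosome 9 from 57589452 to 57596233 (GRCm38, plus strand), read 83.6 and 43.6 CPM in the Nr1d1+/+ libraries and 376 and 215 CPM in the libraries labelled Nr1d1-/-. Replicate 1 was the higher library in both genotypes, and the lower Nr1d1-/- library was still well above the higher Nr1d1+/+ library. The rise was 4.64-fold (log2 fold 2.21, SE 0.35, edgeR adjusted p = 0.00335), and it passed under all 12 alternatives run, with log2 folds from 1.75 to 2.71. Without Nr1d1-/- replicate 1, the library with skeletal muscle transcripts, the log2 fold was 1.75 (edgeR adjusted p = 0.00549). Ulk4, the remaining family member, held only 14, 5, 12 and 21 counts and did not pass, and its exons overlap those of Ctnnb1 on the opposite strand by 759 bases. No source used here states whether reads were counted by strand.

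Per kilobase of transcript, Ulk3 was the most abundant ULK gene in every library. It stood at 29.6 and 15.4 CPM per kb in the Nr1d1+/+ libraries and at 133 and 76 CPM per kb in the libraries labelled Nr1d1-/-. Ulk1 stood at 7.5 and 9.26 against 3.07 and 5.05 CPM per kb, so that Ulk3 exceeded Ulk1 in all 4 libraries and by the widest margin in Nr1d1-/- replicate 1. The starts of these 3 kinase genes are shown because their transcripts moved in opposite directions. Each run is the 250 bases before the RefSeq start (build GRCm38.p6), written 5′ to 3′ on the gene's strand. Ulk1 is at chr5:110810082-110810331 on the minus strand, Ulk2 at chr11:61855093-61855342 on the minus strand and Ulk3 at chr9:57589202-57589451 on the plus strand. In the window of Atg3, at chr16:45158579-45158828 on the plus strand, capitals mark CACGTG and TCACGTGA, an E-box and its longer form bound by the lysosomal regulator TFEB.
Ulk1: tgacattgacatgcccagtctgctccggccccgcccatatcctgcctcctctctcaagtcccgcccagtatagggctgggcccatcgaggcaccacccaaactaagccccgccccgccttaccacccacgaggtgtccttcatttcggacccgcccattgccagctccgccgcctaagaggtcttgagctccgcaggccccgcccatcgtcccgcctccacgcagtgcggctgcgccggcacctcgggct
Ulk2: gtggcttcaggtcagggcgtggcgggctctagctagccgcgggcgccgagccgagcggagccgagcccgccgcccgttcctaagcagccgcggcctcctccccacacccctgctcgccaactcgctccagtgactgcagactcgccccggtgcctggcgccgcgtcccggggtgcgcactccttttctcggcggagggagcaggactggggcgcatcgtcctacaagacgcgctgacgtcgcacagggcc
Ulk3: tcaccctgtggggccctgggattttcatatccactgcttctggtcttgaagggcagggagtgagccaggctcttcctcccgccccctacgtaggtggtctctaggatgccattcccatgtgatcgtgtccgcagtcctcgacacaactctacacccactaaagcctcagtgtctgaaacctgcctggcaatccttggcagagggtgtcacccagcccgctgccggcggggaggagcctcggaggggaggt
Atg3: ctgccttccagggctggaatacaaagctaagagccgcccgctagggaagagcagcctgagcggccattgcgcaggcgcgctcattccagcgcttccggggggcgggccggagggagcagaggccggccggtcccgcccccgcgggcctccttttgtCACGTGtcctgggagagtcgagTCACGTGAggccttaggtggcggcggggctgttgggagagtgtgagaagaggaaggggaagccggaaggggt
The stretch before Ulk3 holds 9 CpG dinucleotides, and those before Ulk1 and Ulk2 hold 20 and 31. Over all windows of members called higher the count ran from 5 (Atg4c) to 43 (Atg4b). Over those of members called lower it ran from 10 (Tax1bp1) to 31 (Ulk2). Whether CpG content bears on the folds was not tested. The 3 ULK windows hold none of 5 motifs searched on both strands: CACGTG, TCACGTGA (which contains CACGTG), the REV-ERB and ROR half-site forms TAGGTCA and TGGGTCA, and the AP-1 form TGANTCA. Of the 42 members 35 had a RefSeq promoter window of 300 bases, from 250 before the start to 50 after it. CACGTG was found in 4 of these 35 (Atg3, Atg5, Atg7 and Atg14) and in 8.09% of 27025 genes with a window. The Atg7 window begins at 114670846 on chromosome 6, inside the gene, which GENCODE starts at 114643097 on the plus strand. The Atg14 window begins at 47568684 on chromosome 14, inside a minus-strand gene that GENCODE starts at 47570649. The Atg14 match runs across the start, from position -1 to 4. TCACGTGA was found in Atg3, from position -72 to -65 before the start, and in 1.12% of genes, and TGGGTCA in Atg4d and in 4.57% of genes. No member window held TAGGTCA or TGANTCA, which 2.97% and 8.97% of genes hold, and only Atg14 of the genes with a match was called. A match is a string of letters and no evidence of binding.

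The class III phosphatidylinositol 3-kinase complex makes PI3P on the forming membrane. Of its 6 genes 1 fell and 5 did not pass, beside 17.3% of all tested genes called lower. Atg14, the subunit that directs the kinase to autophagy, was 11.7 and 13.3 CPM against 5.57 and 5.34 CPM, with tight replicates in both groups. The log2 fold of Atg14 was -1.20 (SE 0.30, edgeR adjusted p = 0.0173). It just missed the threshold with the trends removed (-0.94, edgeR adjusted p = 0.053) and also missed it without Nr1d1+/+ replicate 2 (-1.13, 0.107). Its exons share 239 bases with the antisense gene Gm49004. The catalytic subunit gene Pik3c3 had 39.1 and 39.1 CPM against 31 and 36.2 CPM (log2 fold -0.22, SE 0.20, edgeR adjusted p = 0.433). Becn1, which encodes the scaffold Beclin 1, overlapped between the groups at 98.5 and 83.6 CPM against 77.8 and 93 CPM (log2 fold -0.09, SE 0.19, edgeR adjusted p = 0.735). Pik3r4, Uvrag and Ambra1 had log2 folds from -0.43 to -0.34 and adjusted p-values of 0.197 to 0.343 by edgeR. Their groups did not overlap, which also held for 70.5% of all tested genes. The exons of Becn1 share 3104 bases with the opposite-strand gene Cntd1 in the annotation, so its count is uncertain. Those of Uvrag share 1589 bases with the antisense gene Gm45187, so the count of Uvrag is uncertain as well.

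Lipid supply and PI3P binding are the work of ATG9 scramblases, ATG2 lipid transfer proteins, WIPI proteins and VMP1. Of these 7 genes 2 fell and none rose, beside 17.3% called lower and 16.5% higher of all tested genes. All 7 log2 folds were below 0, as were those of 66.7% of the members and 50.2% of all tested genes. The groups overlapped for Atg2a and Atg9b. Wipi1 was 68.1 and 77 CPM in Nr1d1+/+ and 28.3 and 31.6 CPM in the libraries labelled Nr1d1-/-. The groups were far apart beside their spread, and the fall was 2.42-fold (log2 fold -1.27, SE 0.19, edgeR adjusted p = 0.00302). It passed under all 12 alternatives, with log2 folds from -1.66 to -1.20, and at -1.36 it was no smaller with the trends removed. Its paralog Wipi2, the member that recruits ATG16L1, was 52.2 and 62.1 CPM against 49.8 and 39.4 CPM (log2 fold -0.36, SE 0.21, edgeR adjusted p = 0.21). The paralogs Atg2a and Atg2b differed in the same manner. Atg2b fell from 21.7 and 24.2 CPM to 7.77 and 9.56 CPM (log2 fold -1.40, SE 0.26, edgeR adjusted p = 0.0056), and Atg2a overlapped between the groups at 30.3 and 36.7 against 34.7 and 27.2 CPM (log2 fold -0.12, SE 0.23, edgeR adjusted p = 0.72). The difference between paralogs was not tested. The exons of Atg2b share 383 bases with Gskip on the opposite strand.

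Atg9a, the broadly expressed scramblase gene, was 22.8 and 21.4 CPM against 16.5 and 14.9 CPM (log2 fold -0.50, edgeR adjusted p = 0.133). The count of Atg9a is uncertain, since 34.6% of the 50-base words in its transcripts also occur in other genes, chiefly Gm29253, a gene on the same strand that shares 1832 exon bases with it. Atg9b had few counts, 36, 47, 6 and 33, with the lowest in Nr1d1-/- replicate 1. Its log2 fold was -0.61 (SE 0.66), which turned to 0.05 without that library. Vmp1, which encodes a membrane protein of the endoplasmic reticulum, had a log2 fold of -0.21 (edgeR adjusted p = 0.416) that turned to 0.19 with the trends removed.

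None of the 7 genes that conjugate ATG12 and ATG8 proteins passed the test, beside 33.9% of all tested genes called in either direction. Their log2 folds ran from -0.51 for Atg5 to 0.42 for Atg16l2, with a median of 0.04. Atg7, the shared E1-like enzyme, was 34.3 and 31.9 CPM against 34.5 and 38.5 CPM (log2 fold 0.14, SE 0.20, edgeR adjusted p = 0.615). Atg16l1 overlapped between the groups at 13.6 and 16.5 against 15 and 15.9 CPM (log2 fold 0.04, SE 0.25, edgeR adjusted p = 0.915). Atg5 was 41.5 and 46.5 CPM against 22.6 and 39 CPM, which do not overlap, although Nr1d1-/- replicate 2 stood close to the Nr1d1+/+ libraries (log2 fold -0.51, SE 0.27, adjusted p = 0.174 by edgeR). The log2 fold of Atg5 depended on which Nr1d1-/- library was kept: it was -0.98 without replicate 2 (edgeR adjusted p = 0.0203) and -0.17 without replicate 1 (0.623). With the trends removed it was -0.23 (edgeR adjusted p = 0.536). Atg3, the E2-like enzyme for ATG8 proteins, overlapped at 94 and 128 against 92.7 and 115 CPM. Atg10 and Atg12 had log2 folds of 0.28 and -0.21, and neither passed.

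ATG4 proteases prime ATG8 proteins by exposing their last glycine and later release them from the membrane. Of the 4 genes 2 rose and 2 did not pass, beside 16.5% of all tested genes called higher. Atg4c, on chromosome 4 from 99193934 to 99259787 (GRCm38, plus strand), was 68.6 and 36.3 CPM in Nr1d1+/+ and 219 and 146 CPM in the libraries labelled Nr1d1-/-. As with Ulk3, replicate 1 was the higher library in both genotypes and the groups did not overlap. The rise of Atg4c was 3.48-fold (log2 fold 1.80, SE 0.31, edgeR adjusted p = 0.00448), and it passed under all 12 alternatives. Its log2 fold was 2.23 after removal of the trends, and leaving out Nr1d1-/- replicate 1 gave 1.48. Atg4b, which encodes the most active protease of the family, was 29 and 29.9 CPM against 41.3 and 51.7 CPM (log2 fold 0.66, SE 0.21, edgeR adjusted p = 0.0377). The call of Atg4b was lost when libraries were scaled by size alone (0.28, edgeR adjusted p = 0.338), without a filter on low counts (0.63, 0.0695) and on leaving out either Nr1d1+/+ library (0.60 and 0.184 for replicate 1, 0.66 and 0.161 for replicate 2) or Nr1d1-/- replicate 2 (0.47, 0.155). Atg4d had a log2 fold of 0.25 (edgeR adjusted p = 0.382), and its exons share 1405 bases with Kri1 on the opposite strand. Atg4a stood at 9.27 and 8.71 CPM against 4.84 and 5.27 CPM without passing (log2 fold -0.83, SE 0.32, edgeR adjusted p = 0.0771), and 63.6% of the 50-base words in its transcripts also occur in another gene, chiefly Atg4a-ps, so its count is uncertain. Summed per kilobase, the 4 protease genes came to 39.2 and 27.8 CPM per kb in Nr1d1+/+ and to 90.8 and 69.6 CPM per kb in the libraries labelled Nr1d1-/-, and most of that difference was Atg4c.

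The ATG8 family coats the autophagosome membrane and binds cargo receptors. Of its 5 genes 1 rose and 4 did not pass, beside 16.5% of all tested genes called higher. Map1lc3a, which encodes LC3A, was 52.9 and 51.8 CPM against 134 and 124 CPM. Replicates differed little and the groups were far apart (2.46-fold, log2 fold 1.30, SE 0.17, edgeR adjusted p = 0.00234). Its transcript has 1112 bases and 63.1% GC, and whether these bear on its rise was not tested. With the trends removed its log2 fold was 0.39 and no longer passed (edgeR adjusted p = 0.139). Map1lc3b, which encodes the LC3 protein used most as an autophagosome marker, overlapped between the groups at 127 and 143 against 155 and 142 CPM (log2 fold 0.13, SE 0.17, edgeR adjusted p = 0.575), and 6.39% of the words in its transcripts also occur in other genes, chiefly the pseudogene Gm6055. Gabarap was the most abundant member per kilobase, with means of 299 and 378 CPM per kb in Nr1d1+/+ and Nr1d1-/-. In CPM it was 372 and 257 against 436 and 357, which overlap (log2 fold 0.34, SE 0.22, edgeR adjusted p = 0.262). Gabarapl2 had a log2 fold of 0.16 (edgeR adjusted p = 0.529), and 17% of the words in its transcripts also occur in other genes, chiefly a processed pseudogene.

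Gabarapl1 was the only ATG8 gene with a log2 fold below 0. It was 39.7 and 30.6 CPM against 23.9 and 25.4 CPM (log2 fold -0.51, SE 0.22, adjusted p = 0.11 by edgeR). With the trends removed its log2 fold was -1.02 and passed (edgeR adjusted p = 0.0139). Under that same fit the log2 folds of Map1lc3b and Gabarap were -0.17 and -0.0030, and neither passed. The exons of Gabarapl1 share 570 bases with 1700101I11Rik on the opposite strand.

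**Figure D3:**
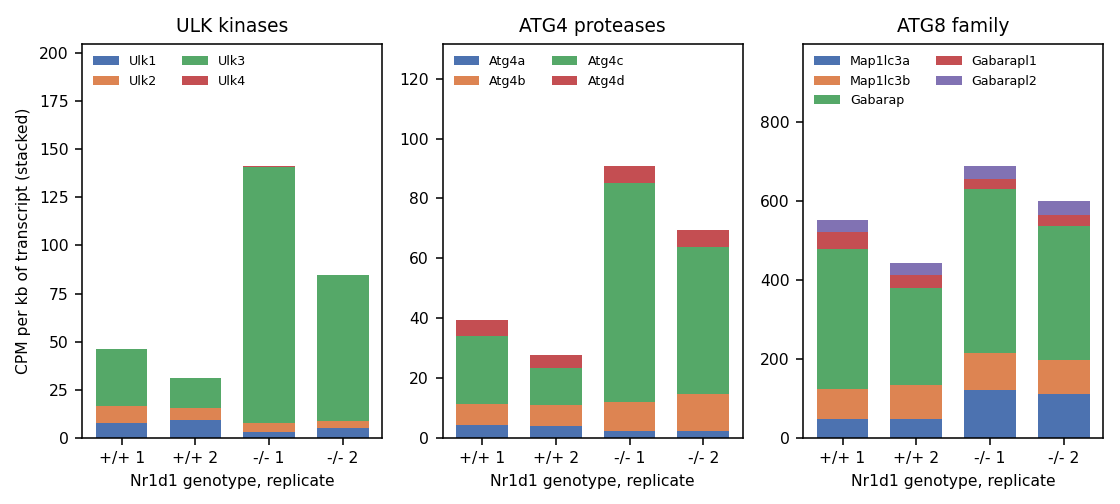
Levels per kilobase of transcript (CPM per kb, stacked bars, 1 bar per library) of the ULK kinase genes, the ATG4 protease genes and the ATG8 family genes. The summed ULK level is 46.1 and 31 CPM per kb in Nr1d1+/+ and 141 and 84.9 in the libraries labelled Nr1d1-/-, with Ulk3 at 64.2% and 49.9% against 94.2% and 89.6% of it, and Gabarap is the largest segment of the ATG8 family in every library.

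Cargo receptors carry ubiquitin-marked or other cargo to ATG8 proteins. All 5 had both Nr1d1-/- libraries below both Nr1d1+/+ libraries, as did 36.2% of all tested genes. Of the 5 genes 3 fell, beside 17.3% of all tested genes. Nbr1, a receptor for ubiquitinated proteins and peroxisomes, was 221 and 182 CPM against 108 and 92.4 CPM (2.01-fold lower, log2 fold -1.01, SE 0.19, edgeR adjusted p = 0.00543). Calcoco1, a receptor of the endoplasmic reticulum and Golgi, fell from 126 and 123 CPM to 73 and 50.6 CPM (log2 fold -1.01, SE 0.21, edgeR adjusted p = 0.00867). Tax1bp1, a ubiquitin-binding receptor, fell from 194 and 212 CPM to 125 and 109 CPM (log2 fold -0.79, SE 0.17, adjusted p = 0.0101 by edgeR). With the trends removed Calcoco1 had -1.14 and still passed (edgeR adjusted p = 0.00959), Nbr1 had -0.60 and missed the threshold (0.0527), and Tax1bp1 had -0.29 and did not pass (0.238). Calcoco1 passed under all 12 alternatives.

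Sqstm1, which encodes the receptor p62 and is induced by NRF2, was the most abundant receptor gene per kilobase. It was 375 and 299 CPM against 260 and 223 CPM, without overlap (log2 fold -0.48, SE 0.19, adjusted p = 0.0791 by edgeR). With the trends removed the log2 fold was -0.70 and passed (edgeR adjusted p = 0.0321). The exons of Sqstm1 share 580 bases with Mrnip on the opposite strand. Optn, a receptor for mitochondria and bacteria, was 37.3 and 35.4 CPM against 24.4 and 31 CPM (log2 fold -0.39, SE 0.22, edgeR adjusted p = 0.193). The summed receptor level was 354 and 311 CPM per kb in Nr1d1+/+ and 226 and 194 CPM per kb in the libraries labelled Nr1d1-/-. Epg5, which encodes a tether between autophagosomes and lysosomes and has the longest transcript of the set at 9660 bases, was 7.57 and 7.57 CPM against 4.69 and 3.16 CPM (log2 fold -0.96, SE 0.37, edgeR adjusted p = 0.0729).

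**Figure D4:**
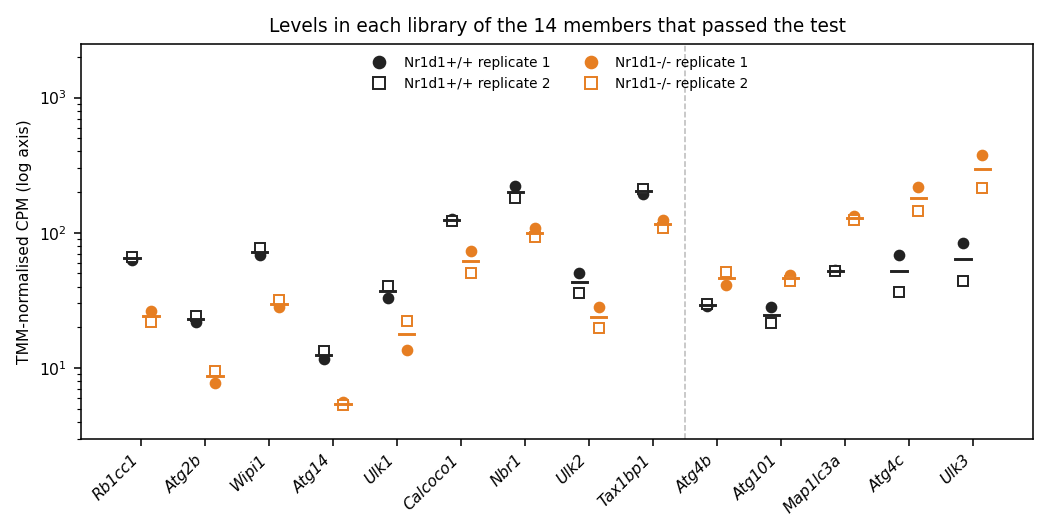
TMM-normalised CPM (vertical log axis) of the 14 genes that passed the test, in each of the 4 libraries (points; circles replicate 1, squares replicate 2, black Nr1d1+/+, orange Nr1d1-/-), with short lines at the mean of each group. The 9 genes left of the dashed line fell and the 5 genes right of it rose. None overlaps between the groups, but these genes were picked by the test on the same libraries, and 70.5% of all tested genes do not overlap.

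Other genes of the pathway and of its control, which the choice of members did not take, came from 2 lists. Of their 60 symbols 56 were found in the files and tested. Of 28 genes of upstream control, 6 rose (21.4%), 7 fell (25%) and 15 did not pass, with a median log2 fold of -0.11. These shares are near the 16.5% and 17.3% of all tested genes. Mtor, the kinase that restrains ULK1, fell from 32 and 42 CPM to 18.8 and 14.8 CPM (log2 fold -1.14, SE 0.25, edgeR adjusted p = 0.0095). The AMPK catalytic subunit gene Prkaa2, whose product activates ULK1, fell from 15.7 and 17.1 CPM to 5.5 and 5.58 CPM (log2 fold -1.56, SE 0.29, edgeR adjusted p = 0.00522; -0.89 and 0.0523 with the trends removed). Nrbf2, which encodes a partner of the ATG14 kinase complex, fell from 21.3 and 23.6 CPM to 9.82 and 9.43 CPM (log2 fold -1.22, SE 0.25, edgeR adjusted p = 0.00796). Bcl2 and Bcl2l1, whose products bind Beclin 1, rose with log2 folds of 1.18 and 1.01 (edgeR adjusted p = 0.00954 and 0.00878). The lysosomal and autophagy regulators Tfeb and Tfe3 had opposite signs, 0.81 (edgeR adjusted p = 0.0447; 0.32 and 0.412 with the trends removed) and -0.69 (0.0362).

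Of 28 genes for organelle receptors, other ATG8 binders and fusion with the lysosome, 6 rose and 6 fell (21.4% each, also near those of all tested genes) and 16 did not pass, with a median log2 fold of -0.44. Ncoa4, the receptor that takes ferritin to the lysosome, fell from 36.9 and 43.6 CPM to 12.5 and 11.2 CPM (log2 fold -1.76, SE 0.23, edgeR adjusted p = 0.00224). Fam134b and Ccpg1, receptors for the endoplasmic reticulum, also fell (-1.26 and -1.12, edgeR adjusted p = 0.00409 and 0.00363). Sec62, another receptor of that organelle and a subunit of its protein import channel, rose from 406 and 343 CPM to 1434 and 930 CPM (log2 fold 1.66, SE 0.24, edgeR adjusted p = 0.00279). Vamp8, the SNARE gene of autophagosome fusion, rose (1.21, edgeR adjusted p = 0.00274), and Stx17 and Snap29, whose products pair with it, had -0.56 and -0.41 and did not pass (0.114 and 0.233).

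When libraries were scaled by their size alone, the median log2 fold of all tested genes was -0.38, and relative to it the members' median of -0.73 was -0.35. All tested genes then split into 1281 called higher (8.65%) and 4410 called lower (29.8%). Under that scaling 21 members were called lower and 3 higher. The direction of each of the 14 genes called held under all 12 alternatives, which reuse the same libraries. Atg101 (log2 fold 0.52, edgeR adjusted p = 0.0845) and Atg4b lost their calls under that scaling.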

How the data were processed

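Per the labels' protocols, tumour RNA came from a Trizol extraction, and a stranded Clontech SMARTer kit was used for the libraries. The submitters' processing notes name TopHat and mm10. The authors deposited 1 table per library with unnormalised counts for each gene symbol. The counting program, its annotation, its use of strand and all versions are not given in the sources used. Everything else was computed from those deposited counts. Genes were filtered with filterByExpr (minimum count 10), scaled by TMM and tested with edgeR 4.0.16 (quasi-likelihood F test, legacy=FALSE, genotype alone in the model, leaving 2 residual degrees of freedom) in R 4.3.3, with Benjamini-Hochberg adjustment over 14801 genes and a threshold of 0.05. The standard error is the absolute log2 fold over the square root of F. Floors of 3 counts were 0.142 to 0.22 CPM and cover counting error only. Transcript length and GC content are medians over coding transcripts of the basic set of GENCODE M21, whose assembly GRCm38 is that of mm10. Trends were removed with natural splines of 5 degrees of freedom on both, fitted per library and passed as offsets. All 42 members matched GENCODE by symbol. Overlaps are exon bases shared in GENCODE, and shared words are 50-base words. Promoter sequences are from RefSeq (GRCm38.p6), and members without a window there are named only.

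Every member past the threshold and a set of anchors (Ulk1, Rb1cc1, Becn1, Pik3c3, Atg5, Atg7, Atg16l1, Atg9a, Wipi2, Map1lc3b, Gabarap, Sqstm1, Optn) were named by rule, and other members were given by their values; genes of the other lists were named after their values were seen. The members and lists were chosen with earlier results of these data known. Simulated counts for 2 against 2 libraries held 14592 genes, 94 of them with a 2-fold change and 103 with a 4-fold change. In these edgeR found 20.2% of the 2-fold and 90.3% of the 4-fold changes, and it called 0.0486% of the genes without a change. Far fewer genes changed there than were called in the data, so these rates may not hold for the data. Alternatives were DESeq2 1.42.0 size factors or library size only, no filter, the DESeq2 Wald test, the older quasi-likelihood estimate, trends removed, a replicate block with and without trends removed, and leaving out each library. Fits with 3 libraries leave 1 group with a single library, which is assumed to vary like the other group.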

Additional observations from a re-analysis of the deposited data

How the results depend on the processing

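Members called lower numbered 9 and those called higher 5. With library size only these became 21 and 3, beside 29.8% lower and 8.65% higher of all tested genes. With GC and length trends removed 3 were called higher, also with the replicate block added, beside 10.9% and 13.7% of all genes in those fits. Leaving out 1 library gave 7 to 9 lower and 3 to 5 higher, the 3 without Nr1d1+/+ replicate 2. Calls over all tested genes also fell in that fit, to 1036 higher (6.75%) and 1170 lower (7.62%), and over the 4 such fits they ran from 6.75% to 15.3% higher and from 7.62% to 15.6% lower. The same replicate number is not known to mean a shared source, and deviations of replicate 1 from its group mean correlated at 0.026 between the genotypes over 14801 genes. With the replicate block in the model edgeR called 10 lower and 5 higher, beside 18.3% lower and 17.7% higher of all tested genes. The added gene was Sqstm1 (log2 fold -0.48, edgeR adjusted p = 0.0397). The members' median log2 fold of -0.35 was -0.73 with library size only, -0.38 without a filter, -0.22 with trends removed, -0.22 with trends removed and the replicate block, and -0.34 to -0.26 with 1 library left out. Of the pathway genes outside the set, 12 were called higher and 13 lower. With library size only these were 7 and 25, beside 8.65% higher and 29.8% lower of all tested genes. With trends removed 7 pathway genes were higher, beside 10.9% of all genes. With 1 library left out they were 5 to 11 higher and 4 to 11 lower, with 5 and 4 without Nr1d1+/+ replicate 2 and 8 lower without Nr1d1-/- replicate 1, beside the same drop over all genes in the first of these fits and 13.2% of all genes called lower in the second. The cause of these shifts was not tested. The genes below had log2 folds that changed sign, and all of them missed the threshold in the reported fit. With library size only they were Atg16l1 (-0.34), Gabarap (-0.0394), Atg10 (-0.10), Atg7 (-0.24), Gabarapl2 (-0.22), Map1lc3b (-0.25) and Atg4d (-0.13). With trends removed they were Gabarap (-0.0030), Vmp1 (0.19), Atg3 (0.12), Pik3c3 (0.0823), Atg12 (0.36) and Map1lc3b (-0.17), and with the replicate block added to that Vmp1 (0.19), Atg3 (0.13), Pik3c3 (0.0773), Atg12 (0.35) and Map1lc3b (-0.17). With 1 library left out Atg16l1 ran from -0.14 to 0.16, Becn1 from -0.24 to 0.0289, Atg3 from -0.35 to 0.12, Atg2a from -0.30 to 0.0325 and Atg9b from -2.17 to 0.0491. Depth limits Ulk4 and Atg9b most, with 5 to 47 counts per library.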
